A study of Mus musculus with 2 samples.

Results

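Non-cycling chondrocytes are here cartilage cells with few or no transcripts of Mki67 and Top2a, genes of dividing cells. They were 2989 of the 22086 cells that passed the quality limits in both libraries of the series. They were chosen by counts of unique molecular identifiers (UMIs, each standing for 1 captured transcript). A barcode needed at least 1000 UMIs, with at most 10% of them in mitochondrial genes. A chondrocyte was a barcode with at least 10 UMIs in the sum of Acan, Col9a1 and Matn1 and 0 UMIs of the endothelial genes Pecam1 and Cdh5. A chondrocyte was kept as non-cycling with at most 2 UMIs in the sum of Mki67 and Top2a. These genes chose the cells, so their levels are given below as a description.

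The cells come from embryos that carry Myf5-Cre and a tdTomato (tdT) reporter in Rosa26 behind a loxP-flanked stop, with floxed Srsf2 on both alleles (SRSF2f/f/Myf5-Cre/tdT) or on 1 allele (SRSF2f/w/Myf5-Cre/tdT, the controls). SRSF2 is a serine- and arginine-rich (SR) splicing factor. Cre was driven by the Myf5 promoter, which is active in muscle precursors and in part of the other mesoderm, and the cells were sorted on tdT from digested trunks and limbs, so every share below is a share inside the tdT gate. The number of embryos behind each library is not given in the sources used here.

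Each genotype was sequenced as 1 library, so genotype and library cannot be told apart and no test between them was possible. The assignment itself is unsure. The sample titled SRSF2f/f/Myf5-Cre/tdT has a summary named WT, and the sample titled SRSF2f/w/Myf5-Cre/tdT has a summary named KO. The libraries are therefore called the library labelled WT and the library labelled KO, by those summaries. Every ratio is the log2 of the library labelled KO over the library labelled WT, and changes its sign under the other order. The paper reports a smaller share of skeletal muscle cells, and larger shares of neural, endothelial and immune cells, in mutant than in control embryos. Endothelial cells here numbered 433 in the library labelled WT and 1032 in the library labelled KO. Non-cycling chondrocytes held 2522 and 303 UMIs of muscle genes in that order. The paper also kept fewer control than mutant cells, under quality limits of its own. Here 12144 cells passed in the library labelled WT and 9942 in the library labelled KO, so these measures do not all point to the same order. The libraries were not assigned to a genotype from these values.

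The library labelled WT gave 15268 barcodes, of which 12144 passed the limits, and the library labelled KO gave 12498, of which 9942 passed. The non-cycling chondrocytes numbered 1518 and 1471 in that order, with 20078115 and 19395635 UMIs in all and a median of 12475 and 11630 UMIs per cell. They had a median of 3210 and 3040 genes per cell, and 3.07% and 2.63% of a cell's UMIs were mitochondrial at the median. Between the libraries, 74 barcode sequences were shared, and 12 of the non-cycling chondrocytes carried one of them. Transcripts of muscle, immune and neuronal cells were found in these cells at unequal levels in the libraries. Those of red blood cells were at similar levels, and the values of all these lists are given at the end.

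Chondrocytes build cartilage, the template of most of the skeleton. In the growth plate they pass from a resting zone through columns of dividing cells to prehypertrophic and hypertrophic cells, which leave the cell cycle and are replaced by bone. SOX9, with SOX5 and SOX6, drives the genes of the matrix, collagens II, IX and XI and the proteoglycan aggrecan. IHH from prehypertrophic cells and PTHrP, acting on the receptor PTH1R, set the pace of hypertrophy, and collagen X marks the hypertrophic cells. UCMA is a secreted Gla-rich protein of the upper growth plate, and epiphycan (Epyc) is a small leucine-rich proteoglycan of epiphyseal cartilage.

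The promoters of the genes that order the cells below are shown for their sequence context, each as the 250 bases before the transcription start on the plus strand of GRCm38.p6 (RefSeq). Capitals mark short motifs that were searched on both strands. The motifs were ACAAT or ATTGT, a core bound by SOX proteins, ACCACA or TGTGGT, a core bound by RUNX proteins, and TATAAA or TTTATA, the TATA box. Among the 32851 promoters of this length, 27.7%, 14.0% and 12.4% hold them. A match is a description of these letters and not a binding site. The Ucma window is chr2:4975872-4976121 and holds ACCACA, the Epyc window is chr10:97643818-97644067 and holds ATTGT, the Col10a1 window is chr10:34389731-34389980 and holds TATAAA, and the window of Matn1, which encodes the cartilage protein matrilin-1, is chr4:130944135-130944384 and holds TGTGGT.
Ucma: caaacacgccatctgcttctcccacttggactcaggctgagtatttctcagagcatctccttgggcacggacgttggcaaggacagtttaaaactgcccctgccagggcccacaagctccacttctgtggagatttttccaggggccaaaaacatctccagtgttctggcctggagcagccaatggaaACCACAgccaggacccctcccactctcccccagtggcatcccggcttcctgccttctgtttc
Epyc: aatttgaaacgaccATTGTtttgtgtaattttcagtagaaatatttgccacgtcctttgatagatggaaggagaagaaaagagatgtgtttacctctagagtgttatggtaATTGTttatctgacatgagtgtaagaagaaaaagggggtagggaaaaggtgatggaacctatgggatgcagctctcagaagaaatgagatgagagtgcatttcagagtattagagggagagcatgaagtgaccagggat
Col10a1: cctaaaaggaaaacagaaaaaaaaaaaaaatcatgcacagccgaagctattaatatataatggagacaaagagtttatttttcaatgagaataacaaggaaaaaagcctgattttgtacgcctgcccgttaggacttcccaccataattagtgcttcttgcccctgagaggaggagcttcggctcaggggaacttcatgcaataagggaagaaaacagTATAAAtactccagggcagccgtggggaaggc
Matn1: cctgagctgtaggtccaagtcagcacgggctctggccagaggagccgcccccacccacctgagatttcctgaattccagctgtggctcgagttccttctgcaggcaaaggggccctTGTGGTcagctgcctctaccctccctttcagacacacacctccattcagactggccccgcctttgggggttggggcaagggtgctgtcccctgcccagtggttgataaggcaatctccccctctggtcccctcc

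The levels of the rule's genes are a description, since they chose the cells. The sum of Acan, Col9a1 and Matn1 had a median of 59 UMIs in the library labelled WT and 49 in the library labelled KO, with the 10th percentile at 17 and 14 and a maximum of 291 and 401. Acan, which encodes aggrecan, had a UMI in 99.4% and 98.2% of the cells, Col9a1 in 99.9% and 100% and Matn1 in 82.9% and 78.9%. Endothelial cells, which should lack these genes, had a UMI of Acan in 23.8% and 18.8%, of Col9a1 in 36.5% and 38.1% and of Matn1 in 10.2% and 16.4% of cells, at a median of 13283 and 16247 UMIs. The endothelial cells were those with 3 or more UMIs of Pecam1 and Cdh5 and fewer than 10 in the cartilage sum, so these shares show how often a few UMIs of a cartilage gene reach a cell that should lack it.

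Cells just inside the limit were unlike the rest. The 191 cells with 10 to 12 UMIs in the sum had 2156 CPM of Col2a1 (CPM, a gene's UMIs over all UMIs summed across the cells of a group, scaled in the usual way as in RNA-seq) and 1534 CPM of Col1a1, the main collagen of bone and connective tissue. The 2798 cells with 13 or more UMIs had 10947 CPM of Col2a1 and 389 CPM of Col1a1. In the 327 cells with 7 to 9 UMIs, just outside, Col2a1 was at 1422 CPM and Col1a1 at 2274 CPM. Both levels of the cells just inside the limit lay nearer to those of the cells just outside. The limit on endothelial genes left out 99 cells of the library labelled WT and 269 of the library labelled KO that had the cartilage sum, and 78 and 165 of these had a single UMI of Pecam1 or Cdh5. Their Col2a1 level was 8928 and 7030 CPM.

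The label was checked against 13 cartilage markers, of which Acan, Col9a1 and Matn1 chose the cells and Ucma and Epyc are named in the rule. The other markers (Col2a1, Sox9, Sox5, Sox6, Hapln1, Col11a1, Cnmd and Chad) were all higher than in all other cells in both libraries. Col2a1, encoding collagen II, stood at 11532 and 9516 CPM, and at 328 and 669.6 CPM in all other cells. Hapln1, which links aggrecan to hyaluronan, stood at 1728 and 1612 CPM against 46.4 and 112, Sox9 at 748 and 663 CPM against 103 and 139, and Sox6 at 109 and 93.1 CPM against 17.8 and 17.9. Among these the log2 differences ran from 2.62 (Sox6) to 5.22 (Hapln1) in the library labelled WT and from 2.25 (Sox9) to 3.85 (Hapln1) in the library labelled KO. Of the 9015 genes with at least 200 UMIs in both libraries together, 5.36% were 2-fold or more higher than in all other cells in both libraries and 6.66% were 2-fold or more lower. The differences were smaller in the library labelled KO, whose other cells include the larger number left out by the endothelial limit, and the part of those cells in this was not tested.

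The genes with the most UMIs outside ribosomal and mitochondrial genes included Col2a1, Col11a1 (5868 and 5303 CPM), Col9a3 (3886 and 4000.3 CPM) and Cdkn1c (5294 and 4855 CPM), which encodes the cell cycle inhibitor p57. Levels count 3′ tags, so no scaling by gene length was made.

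The limit on Mki67 and Top2a divided the chondrocytes. Of the chondrocytes, 77.5% (75.6 to 79.3) in the library labelled WT and 83.2% (81.4 to 85.0) in the library labelled KO were non-cycling, with exact binomial 95% intervals that cover counting error only. The cycling cells, 441 and 296, were deeper, with a median of 18731 and 18356 UMIs, and a limit in UMIs is passed more easily by deep cells. The sum of Mki67 and Top2a was 0 in 1071 and 1152 of the non-cycling cells, 1 in 337 and 251 and 2 in 110 and 68. The cells with 3 UMIs, just outside, numbered 43 and 33. In both libraries, 235 genes (2.61%) were 2-fold or more lower in the non-cycling cells and 20 (0.222%) were 2-fold or more higher. Of the 20 measured genes of the cell cycle list, 15 were lower, among them Mki67 and Top2a of the rule. Another was Cdk1, the kinase that drives entry into mitosis, with 22.7 and 14.0 CPM against 195 and 156 in the cycling cells. The genes that were higher included 4 of the 12 measured prehypertrophic and hypertrophic genes and 4 of the 5 measured haemoglobin genes, whose UMIs in non-cycling cells came mostly from 5 cells of each library (Hba-a1 and Hba-a2 are near-identical copies whose reads can be split). Col10a1 was at 515 and 269 CPM in non-cycling cells and at 74.9 and 35.3 CPM in cycling cells. Dmp1, a phosphoprotein of mineralizing matrix, differed by 2.70 and 4.20 on the log2 scale, and Mustn1, a small nuclear protein of the musculoskeletal system, was at 43.4 and 35.1 CPM against 5.98 and 7.27. Phex, a peptidase that regulates phosphate, differed by 1.77 and 1.46 on the log2 scale, and Omd, the keratan sulfate proteoglycan osteomodulin, by 1.38 and 1.48. Sox9 (0.21 and 0.45) and Acan (0.29 and 0.45) lay within 2-fold.

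Ucma and Epyc divided the cells. Of the non-cycling chondrocytes, 415 and 436 had no UMI of either gene, which is 27.3% (25.1 to 29.7) and 29.6% (27.3 to 32.0). The other cells had a wide and continuous range of the sum, up to 60.1 and 57.1 UMIs per 10000 UMIs of a cell. They were cut into 3 equal groups at 3.65 and 9.69 UMIs per 10000, called low, middle and high here, and 111 and 156 cells lay within 10% of these limits. The groups are ranges of a score and not cell types. The low group had 364 and 349 cells, the middle group 382 and 331 and the high group 357 and 355. Median depth ran from 11878 to 14039 UMIs in these groups and was 10365 and 9574 UMIs in the cells without either gene.

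**Figure D1:**
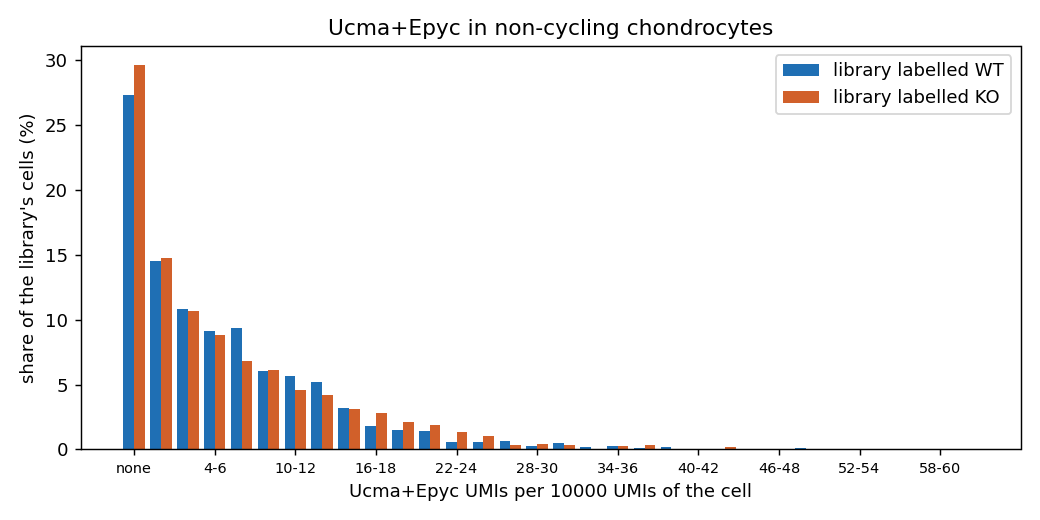
Share of the non-cycling chondrocytes of each library, in percent, by the UMIs of Ucma and Epyc per 10000 UMIs of the cell. Cells with no UMI of either gene are the largest class, at 27.3% in the library labelled WT (blue) and 29.6% in the library labelled KO (orange), and the rest falls off without a second peak.

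In both libraries, 103 of the 9015 genes (1.14%) were 2-fold or more higher in the high group than in the cells without Ucma or Epyc, and 415 (4.6%) were 2-fold or more lower. As Ucma and Epyc split the cells, these are descriptions. The median log2 difference of all 9015 genes was -0.066 and -0.17. Among the 23 measured matrix proteins other than collagens and proteoglycans, 8 were higher, 1 of them Ucma, and 1 was lower. Of the 11 cartilage collagens 0 were higher and 1 was lower, and of the 11 proteoglycans 2 were higher, 1 of them Epyc, and 2 lower. Matn1 went from 515 CPM without either gene to 914, 1209.5 and 1216 in the library labelled WT, and from 390.3 to 833, 1447 and 1696 in the library labelled KO. Matn1 is part of the rule, and so is Acan, at 1054 and 702 CPM without either gene and at 2167 and 2126 CPM in the high group. With groups made by Ucma alone the log2 difference of Matn1 changed sign, and the smaller in size of the libraries' differences was -0.20. Cnmd, which encodes the vessel inhibitor chondromodulin, went from 619 and 594 to 1607 and 2005 CPM. Col2a1 changed less, with log2 differences of 0.86 and 1.39.

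Serpina3n, C4b and Scrg1 were among the genes with the largest differences outside the score itself. Serpina3n, a secreted serine protease inhibitor, was at 5.50 and 3.78 CPM in the cells without Ucma or Epyc and at 92.6 and 45.4 CPM in the high group. The complement component C4b went from 1.54 and 1.89 to 26.1 and 14.4 CPM, and Scrg1, a small secreted protein of cartilage, from 43.4 and 32.7 to 294 and 333 CPM. All 3 were higher in each step from group to group in both libraries. Ccn6, a matricellular protein, differed by 2.93 and 3.02 on the log2 scale, Tnnt3, a troponin of fast muscle, by 3.02 and 2.74, and Meltf, an iron-binding surface protein, by 2.41 and 3.02. Genes that make and sulfate glycosaminoglycans were among the rest. Papss2, which makes the sulfate donor, differed by 1.38 and 1.46, the chondroitin sulfotransferase Chst11 by 1.54 and 1.85 and the sulfate transporter Slc26a2 by 1.32 and 1.08 (with groups made by Ucma alone, -0.11), and 3 of the 16 measured genes of this list were 2-fold higher with 0 lower. Nog, encoding the BMP antagonist noggin, differed by 1.72 and 1.75. Genes of glycolysis and hypoxia had a median of 0.72 in both libraries, with 3 of 19 past 2-fold.

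The cells without Ucma or Epyc were nearer to the limit of the rule, with a median cartilage sum of 28 and 22 UMIs. The sum was 74 and 69 in the cells with Epyc alone, a group of another split given below. It is not given for the high group. Cells at that limit had more Col1a1, as given above. The part of such cells in the differences of this contrast, above and below, was not tested. Of the 12 measured genes of perichondrium and fibroblasts, 9 were 2-fold lower in the high group, and Col1a1 was at 923 and 831 CPM without either gene and at 174 and 77.6 in the high group. Postn, a matrix protein of the perichondrium, went from 231 and 140.2 to 36.1 and 19.4, and Igfbp5, which binds insulin-like growth factors, from 457 and 499 to 83.7 and 73.0. Of the 12 measured genes of prehypertrophic and hypertrophic cartilage, 6 were lower. Col10a1 went from 1320.2 and 378 to 44.7 and 29.7 CPM, and Spp1, encoding osteopontin, from 1436 and 1507 to 124 and 224. Of the 11 measured joint genes, 5 were 2-fold lower and 0 higher, with Prg4, the lubricin of the joint surface, at 16.3 and 12.8 CPM against 2.11 and 0.228. The levels of Prg4 in the high group rest on few UMIs. Of the 5 measured haemoglobin genes, 4 were lower, the exception being Hbb-y, and 5 cells held 93.5 and 92.5 percent of the Hbb-bs UMIs.

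**Figure D2:**
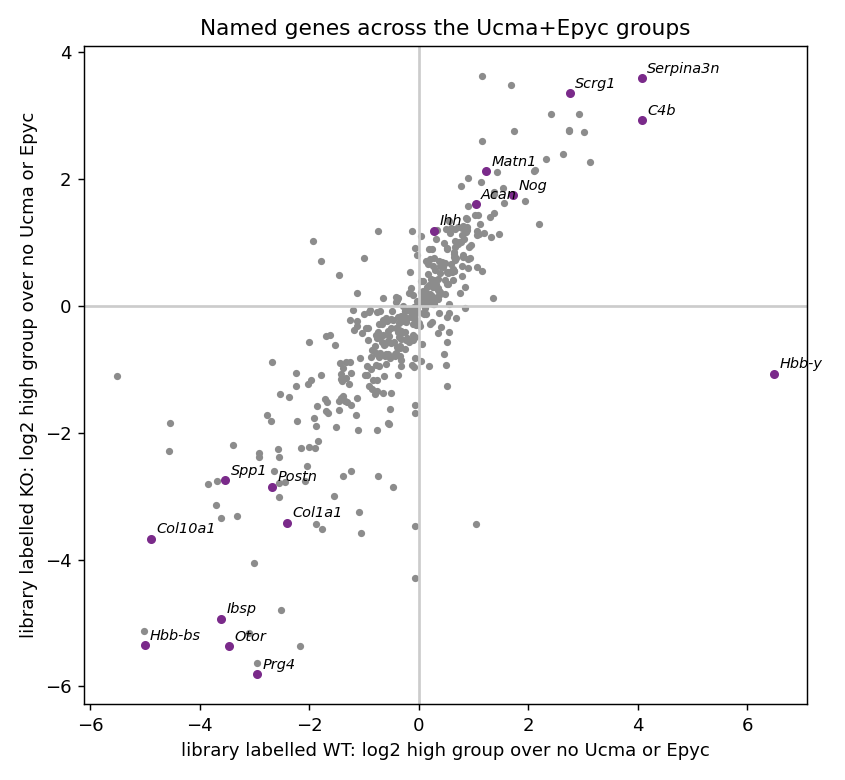
Named genes by the log2 difference between the high group and the cells with no Ucma or Epyc UMI, in the library labelled WT (horizontal axis) and in the library labelled KO (vertical axis), each dot 1 gene. Serpina3n, C4b and Scrg1 lie high in both libraries, Col10a1, Ibsp and Prg4 low in both, and Hbb-y lies high only on the horizontal axis, where 1 cell holds 1215 of its 1255 UMIs.

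Ucma and Epyc overlapped in part. Ucma was found in 32.5% and 33.1% of the non-cycling chondrocytes and Epyc in 62.6% and 62.1%, against 13 of 433 and 21 of 1032 endothelial cells (Ucma) and 46 of 433 and 90 of 1032 (Epyc). At 2000 UMIs per cell, drawn at random, Ucma was found in 14.0% (12.3 to 15.9) and 13.3% (11.6 to 15.1) and Epyc in 41.8% (39.3 to 44.4) and 40.2% (37.7 to 42.8), with 9 and 10 shallower cells left out. Of the cells with Ucma, 69.2% and 74.9% also had Epyc, and of those with Epyc, 35.9% and 40.0% had Ucma. Cells with Ucma but no Epyc numbered 152 and 122, with a median of 10176 and 10275 UMIs. Cells with Epyc but no Ucma numbered 610 and 548, with a median of 14113 and 13230 UMIs, and the part of depth in this split was not tested.

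This split was made after values had been seen and is a description. In both libraries, 85 of the 9015 genes (0.943%) were 2-fold or more higher in the cells with Ucma alone and 111 (1.23%) in the cells with Epyc alone. Of the 11 measured proteoglycans and link proteins, 3 were 2-fold higher with Ucma alone and 1, Epyc itself, was lower, and the genes named here were picked after their values were seen. Fmod, encoding fibromodulin, was at 487 and 422 CPM with Ucma alone and at 64.3 and 59.5 CPM with Epyc alone. Ogn, encoding osteoglycin, was at 481 and 539 against 78.3 and 110.2, and Bgn, encoding biglycan, at 651 and 637 against 162 and 160.3. Igfbp7, a secreted binding protein, differed by 3.32 and 3.42 on the log2 scale, the fibril collagen Col14a1 by 2.08 and 2.07, the Wnt antagonist Wif1 by 1.81 and 1.70, and the transcription factors Pax1 and Barx1 by 1.89 and 1.86 and by 2.41 and 2.44. Of the 7 measured genes of the resting zone list, 4 were 2-fold higher with Ucma alone, 1 of them Ucma itself, and 1 with Epyc alone. Barx1, Sfrp5 and Scx each had fewer than 40 UMIs in the cells with Ucma alone in each library. The cells with Ucma alone were also nearer to the limit of the rule, with a median cartilage sum of 36 and 31 UMIs against 74 and 69 with Epyc alone. Connective tissue genes moved with the split. Of the 12 measured genes of perichondrium and fibroblasts, 3 were 2-fold higher with Ucma alone and 0 lower, with a median of 1.06 and 0.63, and the medians were 0.91 and 0.65 for 5 fibroblast markers and 1.92 and 1.29 for 2 tendon markers. Their part in the values above was not tested.

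The cells with Epyc alone had higher levels of Matn1 and of prehypertrophic genes. Matn1 was at 1255 and 1415 CPM, against 389 and 423 with Ucma alone. Ihh was at 54.1 and 53.5 against 13.2 and 6.88, Pth1r at 119 and 106 against 42.5 and 25.2, and the channel protein Panx3 at 95.5 and 75.7 against 21.5 and 5.35. Prkg2, the cGMP kinase of growth plate cells, differed by -2.69 and -2.45 (log2, Ucma alone over Epyc alone), Snorc, a membrane proteoglycan of cartilage, by -1.67 and -1.42, and Serpina3n by -3.45 and -2.79. Of the 12 measured prehypertrophic and hypertrophic genes, 6 were 2-fold lower with Ucma alone and 0 were higher. Cells with 10 or more Col10a1 UMIs numbered 43 and 30 with Epyc alone, against 1 and 0 with Ucma alone. The part of these cells in the levels above was not tested. Col2a1 (-0.20 and -0.24), Sox9 (-0.10 and -0.29), Sox5 (-0.06 and -0.20) and Scrg1 (0.08 and 0.011) differed little between the groups.

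**Figure D3:**
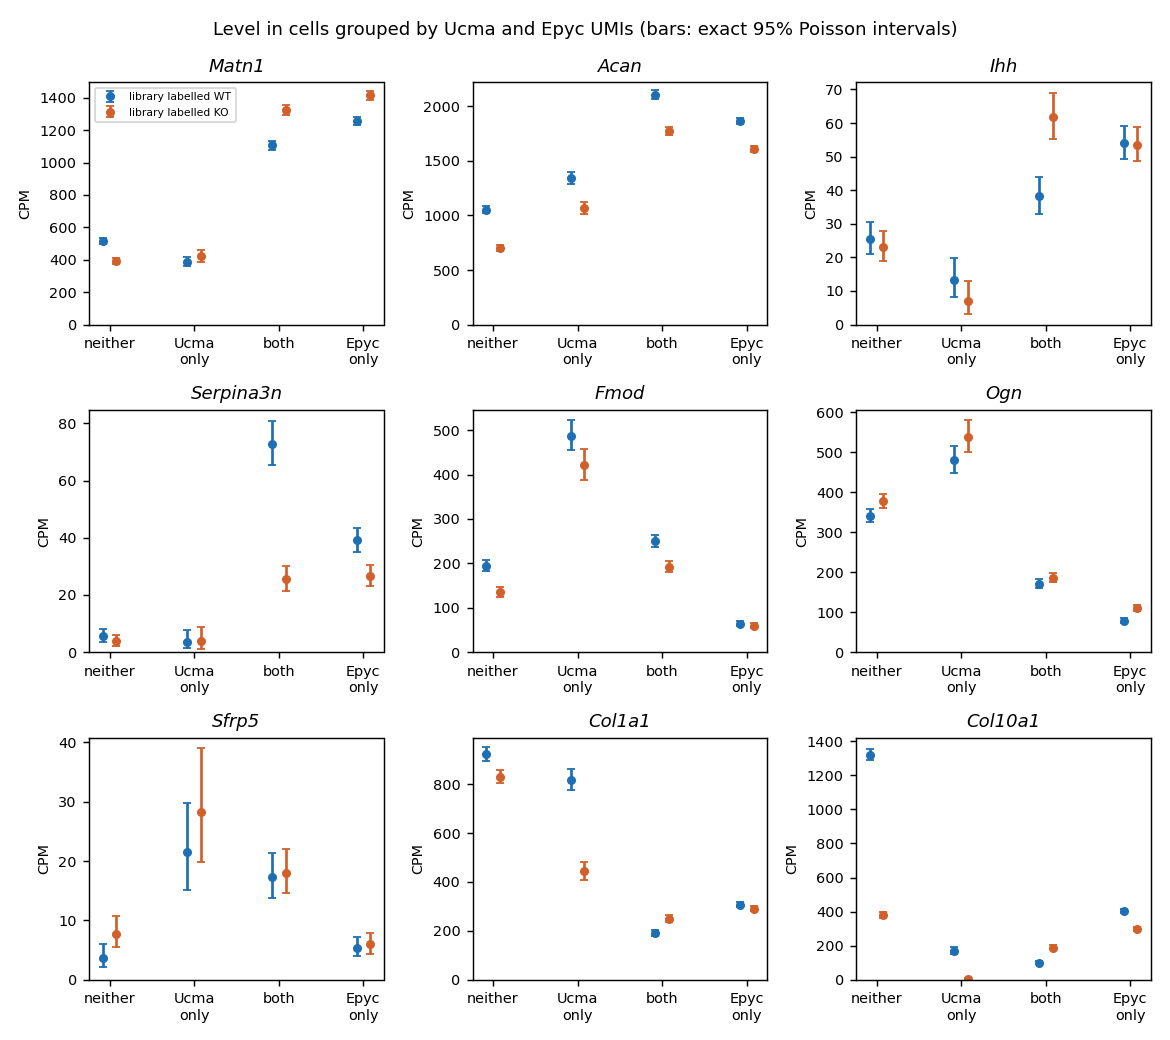
Level of 9 genes in CPM in non-cycling chondrocytes with neither gene, Ucma alone, both or Epyc alone, in the library labelled WT (blue) and the library labelled KO (orange). Bars are exact 95% Poisson intervals, which cover counting error only. Fmod and Ogn peak in the cells with Ucma alone in both libraries, while Matn1, Ihh and Serpina3n are lower there than in the cells with Epyc alone.

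A small set of cells carried nearly all Col10a1, the collagen of hypertrophic cartilage. With a limit of 10 UMIs, also set after values had been seen, 92 cells of the library labelled WT (6.06%, 4.91 to 7.38) and 52 of the library labelled KO (3.54%, 2.65 to 4.61) were in this range. They held 97.0% and 95.8% of all Col10a1 UMIs of the non-cycling chondrocytes, with a median of 53 and 47 UMIs per cell and a maximum of 548 and 623. Near the limit, 4 and 8 cells had 8 or 9 UMIs, and 8 and 6 cells had 10 to 12. Counts of 1 to 9 UMIs were seen in 174 and 97 cells, with a median of 1. Any UMI of Col10a1 was found in 17.5% and 10.1% of the cells, but also in 9.24% and 5.14% of endothelial cells, so a single UMI does not mark a cell. At 2000 UMIs per cell these shares were 8.75% (7.37 to 10.3) and 5.27% (4.18 to 6.54), against 1.62% and 0.682% of endothelial cells. The cells in the range were deeper than those without a Col10a1 UMI, with medians of 17776 and 18854 UMIs against 11882 and 11286. Of them, 39.1% and 26.9% had no UMI of Ucma or Epyc, against 27.0% and 30.2% of the cells without Col10a1, so the libraries went opposite ways. In turn, 5.43% and 3.85% were in the high group, which holds 24.8% and 25.5% of the cells without Col10a1.

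In this range, 290 of the 9015 genes (3.22%) were 2-fold or more higher than in cells without a Col10a1 UMI in both libraries, and 525 (5.82%) were 2-fold or more lower. The median log2 difference of all 9015 genes was -0.20 and -0.21. Of the 12 measured prehypertrophic and hypertrophic genes, 10 were higher, 1 of them Col10a1 itself, which made the groups, and 0 were lower. Ihh, the signal of prehypertrophic cells, was at 176 and 195 CPM in the range and at 25.7 and 26.6 CPM in cells without Col10a1. Panx3 was at 376 and 306 against 31.3 and 26.8, with a UMI in 91.3% and 96.2% of the cells in the range. Pth1r was at 502 and 370.5 against 59.8 and 57.4. Of the 19 measured chondrocyte transcription factors, 5 were higher and 3 were lower. Among those of hypertrophy, Runx2 was at 1.79 and 1.80 on the log2 scale and Mef2c at 482 and 423 CPM against 115 and 106.

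The next genes were picked after their values were seen. Slc13a5, a citrate transporter, was at 110.4 and 129 CPM against 1.39 and 2.44. Alpl, the alkaline phosphatase of mineralizing cells, was at 190.2 and 129 against 7.20 and 9.53, Phex at 64.2 and 75.3 against 3.10 and 2.32, and Spp1 at 4418 and 9712 against 302 and 404. Mmp13, the collagenase of late hypertrophy, was found in 5 and 6 of these cells, and 2 cells hold most of its 114 UMIs in the library labelled KO. Comp (2.42 and 2.39) and Hapln1 (1.62 and 1.81) were higher among the matrix genes, while Col2a1 (0.57 and 0.66) and Acan (0.65 and 0.65) lay within 2-fold. Lower genes included Ucma (-3.45 and -3.61), Fmod (-5.79 and -4.29), the transcription factors Pax1 (-4.07 and -2.71) and Sim2 (-3.84 and -3.72), the BMP response gene Id1 (-2.58 and -2.57) and Cytl1, a cytokine-like protein of cartilage (-2.35 and -2.80). Pax1 and Sim2 had 4 UMIs or fewer in the range in each library. Of the 20 measured cell cycle genes, 13 were lower and 0 were higher. Of the 14 measured Hox genes, 7 were lower.

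**Figure D4:**
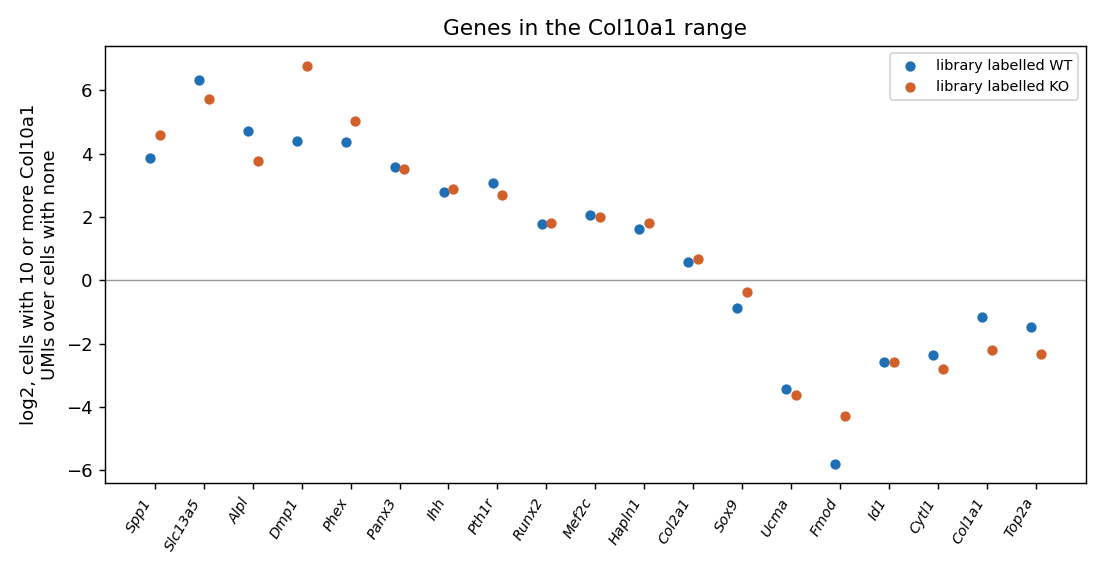
Log2 difference of named genes between non-cycling chondrocytes with 10 or more Col10a1 UMIs and those with none, in the library labelled WT (blue) and the library labelled KO (orange), each dot 1 gene in 1 library. The genes of mineral and hypertrophy on the left lie above 0 in both libraries, and Ucma, Fmod, Id1 and Cytl1 lie below.

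Between the libraries, chondrocytes made up 16.1% (15.5 to 16.8) of the cells in the library labelled WT and 17.8% (17.0 to 18.5) in the library labelled KO. The non-cycling cells alone made up 12.5% (11.9 to 13.1) and 14.8% (14.1 to 15.5). These shares rest on every other cell inside the tdT gate. The library labelled WT had 433 endothelial cells and the library labelled KO had 1032. A larger endothelial share in the mutant than in the control is reported in the paper.

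Srsf2 (ENSMUSG00000034120, chromosome 11, 116849901 to 116853094, minus strand, GRCm38), the floxed gene, stood at 188 CPM (182 to 194) in the library labelled WT and 141 CPM (136 to 146) in the library labelled KO, a log2 ratio of -0.41 (-0.48 to -0.34). A UMI was found in 83.4% and 74.4% of the cells, and at 2000 UMIs per cell in 30.9% (28.6 to 33.3) and 24.4% (22.2 to 26.7). The ratio was also below 0 outside these cells, at -0.45 (-0.55 to -0.36) in cycling chondrocytes, -0.37 (-0.45 to -0.28) in endothelial cells and -0.53 (-0.56 to -0.50) in all other cells. It was between -0.47 and -0.35 in the 4 groups by Ucma and Epyc. Of all 9015 genes, 3.58% had a lower ratio, and among the 1333 measured genes within 2-fold of its level, 0.375%. The deleted part of the gene is not named in the sources used here and the tags come from 3′ ends, so the level need not show the deletion. Mettl23 and Mfsd11 overlap Srsf2 on the other strand. The other 9 measured SR factors had ratios from -0.17 to 0.19, with Srsf10 at 0.19 (0.12 to 0.26) and Srsf3 at -0.02 (-0.06 to 0.02).

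Over all 9015 genes the median ratio was -0.014. The interval of counting error lay above 0 for 19.7% of them and below 0 for 21.1%, and it narrows with a gene's UMIs, so a count of such intervals in a list of abundant genes says little by itself. In the library labelled KO, 90 genes (0.998%) were 2-fold or more higher and 14 (0.155%) were 2-fold or more lower. Without the 231 and 258 cells that had 5 or more UMIs of muscle, immune, red blood cell, neuronal and epidermal genes, 23 of 8197 genes (0.281%) were higher and 3 (0.0366%) were lower. Fewer genes then reached 200 UMIs. Of the 90 genes, 44 stayed 2-fold higher without those cells (19 of them with 200 UMIs), and of the 14 genes, 10 stayed 2-fold lower (2 with 200 UMIs). The cartilage genes were nearly all inside 2-fold.

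Of the 11 collagens of cartilage, 10 had an interval below 0 and 0 were past 2-fold, and the median ratio of the list was -0.24. Col2a1 had a ratio of -0.28 (-0.29 to -0.27), Col9a1 of -0.18 (-0.20 to -0.16) and Col11a1 of -0.15 (-0.16 to -0.13). Col9a3, at 0.042 (0.028 to 0.056), was the one above 0. The lowest was Col10a1 (ENSMUSG00000039462, chromosome 10, 34389981 to 34397085, plus strand), at 515 CPM (506 to 525) in the library labelled WT and 269 CPM (261 to 276) in the library labelled KO, a ratio of -0.94 (-0.99 to -0.89). As 5 cells hold 21.3% and 35.8% of its UMIs, the share of cells in the Col10a1 range is given beside it, at a log2 ratio of -0.78 (-1.26 to -0.30).

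Other groups of cartilage genes had ratios of mixed sign, nearly all within 2-fold. The 19 measured transcription factors had a median of -0.16, with 11 intervals below 0 and 1 above. Sox9 was at -0.17 (-0.21 to -0.14), Sox5 at -0.17 (-0.24 to -0.096), Sox6 at -0.23 (-0.32 to -0.14) and Runx3 at -0.49 (-0.67 to -0.31), while Arid5b, a coactivator of SOX9, was at 0.37 (0.25 to 0.48). The 11 proteoglycans and link proteins had a median of -0.11, with Acan at -0.28 (-0.31 to -0.26) and Fmod at -0.33 (-0.41 to -0.26) on one side and Dcn, encoding decorin, at 0.40 (0.32 to 0.49) on the other. The 23 other matrix proteins had a median of -0.12, with 14 intervals below 0 and 5 above. The one past 2-fold was Otor, a secreted protein of cartilage and the inner ear, at 4.48 and 14.0 CPM, a ratio of 1.65 (1.30 to 2.01), with 75% of its UMIs in 5 cells of the library labelled KO and a ratio of 1.41 in endothelial cells. Matn1 was at 0.13 (0.10 to 0.16) and Cnmd at 0.15 (0.12 to 0.17), both above 0, and Chad, which encodes the adhesion protein chondroadherin, at -0.39 (-0.47 to -0.31). Ucma (ENSMUSG00000026668, chromosome 2, 4976122 to 4985748, plus strand) was at 115 CPM (109.9 to 119) in the library labelled WT and 98.3 CPM (94.0 to 103) in the library labelled KO, a ratio of -0.22 (-0.31 to -0.13). Epyc (ENSMUSG00000019936, chromosome 10, 97644068 to 97682454, plus strand) was at 494 CPM (484 to 504) in the library labelled WT and 486 CPM (477 to 496) in the library labelled KO, a ratio of -0.022 (-0.063 to 0.019), an interval that holds 0.

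Of 16 genes of glycosaminoglycan and sulfate use, 15 were below 0, 13 with the whole interval, and the median was -0.17. Papss2 was at -0.32 (-0.39 to -0.26) and Chsy1, a chondroitin synthase, at -0.40 (-0.53 to -0.28). Of 19 genes of hypoxia and glycolysis, 13 had an interval below 0 and 4 above, with a median of -0.18. Slc2a1, the glucose transporter GLUT1, was at 106 and 71.6 CPM, a ratio of -0.57 (-0.67 to -0.47), and the phosphofructokinase Pfkl was at -0.52 (-0.67 to -0.38), whereas Vegfa was at 0.22 (0.14 to 0.29). P3h2, a prolyl hydroxylase of collagens, was the lowest of 21 genes of collagen modification, at -0.67 (-0.88 to -0.46).

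The 10 measured FGF genes had a median of -0.052, with 2 intervals above 0 and 4 below. The lowest, Etv5, a target of FGF signalling, was at 37.6 and 24.0 CPM, a ratio of -0.64 (-0.81 to -0.48), and Fgfr3, the FGF receptor that restrains chondrocytes, at -0.28 (-0.37 to -0.19), whereas Spry1 and Spry2, feedback inhibitors of the pathway, were at 0.30 (-0.0084 to 0.60) and 0.26 (0.17 to 0.36). Ihh was at 0.16 (0.025 to 0.30) and its receptor Ptch1 at 0.013 (-0.081 to 0.11), while Pth1r was at -0.32 (-0.42 to -0.23). Without cells that had UMIs of other types, the Ihh ratio was 0.44. The Wnt list had a median of -0.25 over 12 genes, with Wif1 at -0.55 (-0.72 to -0.38) and Dkk3 at -0.56 (-0.86 to -0.26) below 0 and Wnt5a at 0.36 (0.16 to 0.57) above. Among 11 genes of insulin-like growth factors, Igfbp2 stood out at 29.6 and 53.9 CPM, a ratio of 0.87 (0.72 to 1.01). The list of BMP and TGF-beta genes had a median of -0.11 over 24 genes, and Bmp6, a BMP of hypertrophic cartilage, was at -0.45 (-0.60 to -0.31). The 7 resting zone genes had a median of 0.099, with 2 intervals above 0 and 3 below. Over the alternatives the median of this list took both signs, from -0.066 to 0.11. Its highest gene, Apoe, which carries lipids, was at 23.8 and 47.2 CPM, a ratio of 0.99 (0.83 to 1.15). In endothelial cells the ratios of Igfbp2 and Apoe were -0.42 and -0.20.

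All 13 measured genes of the early response and heat shock list had an interval above 0, with a median of 0.34, and 2 were past 2-fold. Jun was at 855 CPM (843 to 868) in the library labelled WT and 1356 CPM (1340.0 to 1373) in the library labelled KO, a ratio of 0.67 (0.64 to 0.69). Fos was at 0.50 (0.47 to 0.53), Junb at 0.47 (0.43 to 0.52) and Atf3 at 0.29 (0.24 to 0.33). Fosb, at 0.099, took both signs over the alternatives, with a lowest ratio of -0.010. The heat shock genes Hspa1a and Hspa1b, near-identical copies whose reads can be split, were at 1.01 (0.83 to 1.19) and 1.13 (0.87 to 1.39), and fell under 2-fold in some alternatives, to 0.70 with Mki67 and Top2a at 0 and to 0.85 after thinning to 2000 UMIs. In endothelial cells Jun was at -0.24, Fos at -0.16 and Hspa1a at 1.27, and the median of the list was -0.050. The median was 0.58 in cycling chondrocytes and 0.45 in all other cells.

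Of the 8 measured genes of cell cycle exit, 4 had an interval above 0 and 2 below, with a median of 0.29. Cdkn1a, the inhibitor p21, was at 338 CPM (330.4 to 347) in the library labelled WT and 416 CPM (407 to 426) in the library labelled KO, a ratio of 0.30 (0.25 to 0.35), Cdkn1b at 0.36 (0.19 to 0.52) and Rb1 at 0.42 (0.17 to 0.67). Cdkn1c, by far the most abundant of the list, was at -0.12 (-0.14 to -0.11). Of 20 measured cell cycle genes, 12 had an interval below 0 and 2 above, with a median of -0.21, and Cdk1 was at -0.70 (-0.92 to -0.48). The rule limits Mki67 and Top2a to 2 UMIs, so these ratios are among cells that passed it.

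**Figure D5:**
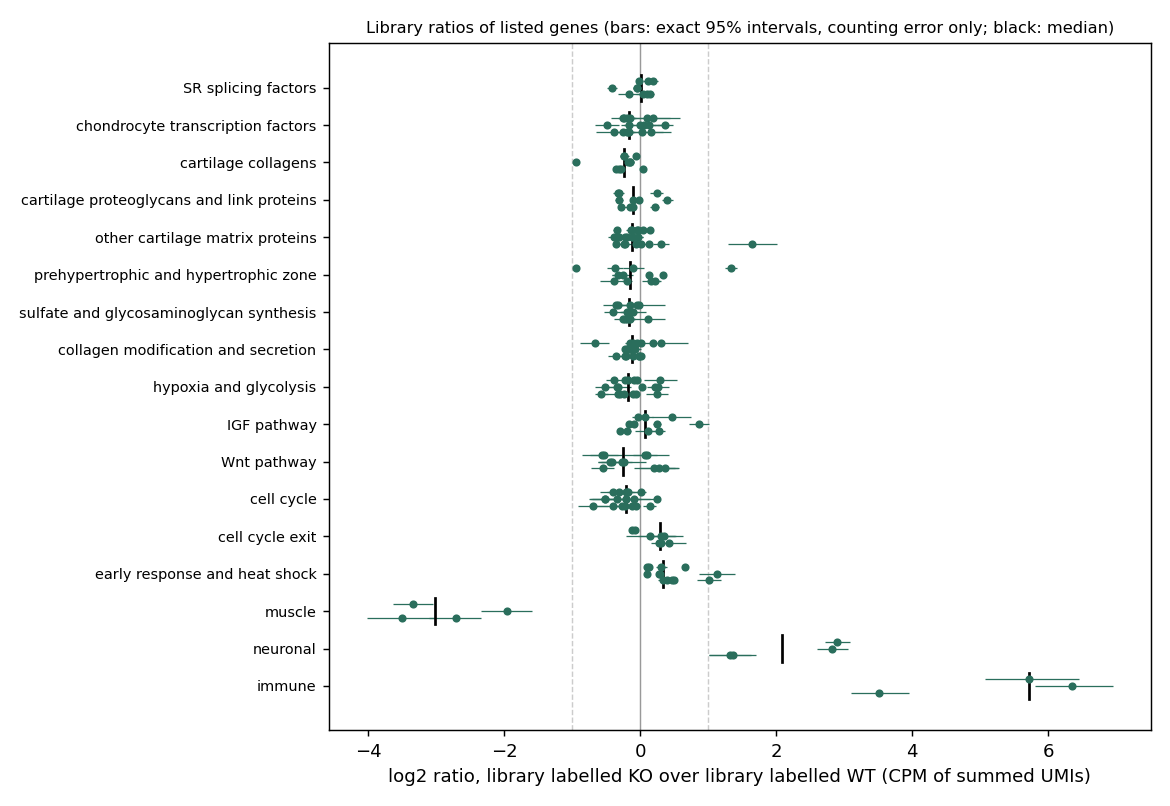
Log2 ratio of the library labelled KO over the library labelled WT in non-cycling chondrocytes for the measured genes of 17 lists, each dot 1 gene, with exact 95% intervals that cover counting error only and the list's median in black. The cartilage lists lie within 2-fold (dashed lines) apart from single genes, all 13 genes of the early response list lie above 0, and the muscle, neuronal and immune lists lie far from 0.

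The hypertrophic list had genes on both sides. Spp1 was at 727 and 922 CPM, a ratio of 0.34 (0.31 to 0.37), and Panx3 at -0.37 (-0.49 to -0.26). Ibsp, encoding bone sialoprotein, was at 76.6 and 194 CPM, a ratio of 1.34 (1.25 to 1.43), but 1 cell of the library labelled KO holds 1338 of its 3759 UMIs, and without the highest cell of each library the ratio was 0.95. As a mean over cells it was 0.61. The UMIs of Ibsp came from fewer cells in that library, 15.6% against 24.0%, close to the 15.7% and 25.9% of endothelial cells.

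RNA of some other cell types was unequal in the libraries. The 8 muscle genes had 2522 UMIs in the library labelled WT and 303 in the library labelled KO, and Actc1, a muscle actin, had 1118 and 107. None of the 8 was at 0 in the first library and 2 were at 0 in the second. Myog, which marks differentiating muscle, had a UMI in 13.4% and 1.63% of the non-cycling chondrocytes and in 14.8% and 1.84% of the endothelial cells. The whole list was at 125.6 and 15.6 CPM in the chondrocytes and at 215 and 26.1 CPM in the endothelial cells. The 6 immune genes had 111 and 3845 UMIs, led by the mast cell protease Cma1 with 2130 UMIs in the library labelled KO, and 64.4% of the list's UMIs there came from 5 cells. S100a8 and S100a9, genes of neutrophils, had 0 UMIs in the library labelled WT and 610 and 670 in the library labelled KO, where 1 cell holds 554 and 1 cell holds 577 of them. Against a floor of 3 counts over the library they were at least 210.5-fold and at least 231-fold higher. The 4 neuronal genes had 682 and 3785 UMIs, led by Stmn2, and the 3 epidermal genes 198 and 556. The 6 haemoglobin genes had 33509 and 29674 UMIs, of which 93.8% and 92.3% came from 5 cells. The Schwann cell list had 203 and 314 UMIs, the tendon list 372 and 409 and the pericyte list 81 and 160. The fibroblast list, led by Col3a1, had 18448 and 16713 and the osteoblast list, led by Col1a1, 12120 and 13029. Of the 4 endothelial genes, Pecam1 and Cdh5 were at 0 by the rule, and Kdr and Emcn had 39 and 64 UMIs together. Of the 90 genes that were 2-fold higher in the library labelled KO, 18 had 50% or more of their UMIs there in 5 cells. The limit of 5 or more UMIs given above covers only the muscle, immune, red blood cell, neuronal and epidermal genes. Leaving out those cells did not remove RNA spread thinly over cells. The muscle list still had 856 and 116 UMIs and a median ratio of -2.87 against -3.02 with them. The other lists were not part of that limit. Of the non-cycling chondrocytes, 75.3% and 70.3% had 5 or more UMIs of the fibroblast list, and 28.6% and 23.9% of the osteoblast list. The part of such RNA in the ratios of other genes was not tested.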

How the data were processed

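The deposited matrix holds raw UMI counts per gene and barcode for both libraries. According to the paper's methods and the submitters' notes, the authors sorted tdT-positive cells, made 10x Genomics 3′ libraries, and aligned and counted the reads on mm10 with Cell Ranger, whose version is 3.1.0 in the notes and 5.0.0 in the matrix header; the libraries were aggregated with reads down-sampled to like depth. Barcode suffixes give the library, and 0 suffixes were left unmapped.

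UMIs were summed over the cells of a group and scaled to CPM, with exact 95% Poisson intervals. Shares have exact Clopper-Pearson intervals, and ratios between libraries have intervals from the exact binomial split of the UMIs. All intervals cover counting error only. With 1 library per genotype there was no test and no p-value, and 2-fold was the size limit among genes with 200 or more UMIs. No doublet caller was run. The results of 1 further gene were left out of the text. Named genes were those of the gene lists, Srsf2, and the genes with the most extreme ratios or the most UMIs; genes of the splits by Ucma or Epyc alone and by Col10a1 were chosen after their values were seen. The cells and lists were chosen with earlier results of these data known. Of 32285 genes, 32158 had coordinates (GRCm38). The scripts (Python 3.11.15) used pandas 2.3.3 and SciPy 1.17.1 for tables and intervals, NumPy 2.4.6 for sums and matplotlib 3.10.9 for plots, and were tested on simulated data.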

Additional observations from a re-analysis of the deposited data

Results flagged for a closer look

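The 7 genes reported here are ones in which the libraries went in opposite directions, past 2-fold in each. They need not be all such genes, and their share of the measured genes is not given. The difference between the libraries was not tested. Between the high group by Ucma and Epyc and the cells without either gene, the log2 difference of Scn9a was 4.75 in the library labelled WT (28 against 1 UMIs) and -1.78 in the library labelled KO (19 against 71). Igfbpl1 was at -2.06 and 1.62, Sncg at 1.04 and -3.44, and Gm17251 at 1.29 and -1.46. Between non-cycling and cycling chondrocytes, Rprm was at -1.05 and 1.07, Snhg11 at -1.45 and 1.63 and Nefm at -1.50 and 1.01. The highest chondrocyte of any group held 3 and 30 UMIs of Scn9a in the libraries labelled WT and KO, 30 and 31 of Igfbpl1, 43 and 18 of Gm17251, 24 and 154 of Sncg, 3 and 24 of Rprm, 33 and 55 of Snhg11 and 99 and 142 of Nefm.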

How the results depend on the processing

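No paired analysis was possible because each genotype has 1 library, and for the same reason no replicate could be left out. With a rule sum of 20 or more, the log2 ratio of the chondrocyte share changed from 0.14 to 0.032, and without the endothelial limit to 0.27. The ratio of the non-cycling share changed from 0.10 to 0.25 with Mki67 and Top2a at 0. The Srsf2 ratio was -0.48 after thinning to 2000 UMIs. Genes 2-fold higher numbered 57 with the rule per 10000 UMIs, 59 with Mki67 and Top2a at 0, 23 without cells holding UMIs of other types, 5 after thinning, 325 with at least 50 UMIs per gene and 17 with at least 1000. Genes 2-fold lower numbered 3 without those cells, 1 after thinning, and 60 and 2 with at least 50 and 1000 UMIs. The ratio of Ucma and Epyc together, -0.057, was 0.00955 with a sum of 20, 0.00815 per 10000 UMIs, -0.0998 without the endothelial limit, 0.017 with Mki67 and Top2a at 0, 0.0031 without cells of other types, 0.043 after thinning and 0.0057 as a mean over cells, so its sign is not settled. Genes past 2-fold across the Ucma and Epyc groups, 518, numbered 1017 and 157 with at least 50 and 1000 UMIs, and 169 with groups by Ucma alone. Those of the cycling contrast, 255, numbered 109 with Mki67 and Top2a at 0, and 502 and 77 with at least 50 and 1000 UMIs. Those between Ucma alone and Epyc alone, 196, numbered 389 with at least 3 UMIs of one gene, a setting chosen after seeing the data. The causes were not tested, apart from the number of genes or cells that a setting leaves.

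With groups by Ucma alone, the log2 difference changed sign for Aldoc (-0.20), Barx1 (0.21), Col14a1 (0.81), Ecm2 (1.11), Foxa3 (-0.25), Hspa1a (0.030), Matn1 (-0.20), Ogn (1.22), Pbld1 (-1.56), Pdia4 (-0.031), Ppp1r36 (-0.54), Scx (0.19), Slc26a2 (-0.11), Slpi (-0.47), Steap1 (-0.00901) and Wif1 (0.49), and with groups by Epyc alone for 1520401A03Rik (-0.40) and Sfrp5 (-0.12). Of the other values, 105 of the main results stayed within their limits. Of those of single genes, list medians and counts of higher or lower genes, 22685 stayed within their limits and 869 moved. Of 426 ratios of named genes between the libraries, 99 took both signs over the alternatives. The use of 1 library per genotype limits every ratio, and the share of free RNA in each library was not estimated.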

Other observations

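Of the genes past 2-fold between the libraries, 12 had at most 15% of their UMIs in 5 cells, a limit chosen after values had been seen. Cwc22, a splicing factor that also loads the exon junction complex, was at 22.9 and 76.6 CPM in the libraries labelled WT and KO, a log2 ratio of 1.74 (1.59 to 1.90), and at 1.97 in endothelial cells. Nmnat1, which makes NAD in the nucleus, was at 2.19 and 12.2 CPM, a ratio of 2.48 (2.01 to 2.98), and Hmox1, a haem-degrading enzyme, at 30.8 and 65.0 CPM, a ratio of 1.08 (0.94 to 1.22). Mt1, a metallothionein, was at 336 and 723 CPM, a ratio of 1.11 (1.07 to 1.15), with 0.48 in endothelial cells. On the lower side, the transcription factor Sim2 was at -1.03 (-1.26 to -0.79), with -1.21 in endothelial cells, and the tetraspanin Tspan8 at -1.10 (-1.38 to -0.82), with 0.42. Sim2 was under 2-fold in some alternatives, at -0.84 with Mki67 and Top2a at 0, and Tspan8 was at -0.95 as a mean over cells.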
